A study of Mus musculus with 3 samples.

Results

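The regions described here are stretches of H3K4me3 that are about as wide as a promoter and that lie far from any called H3K27me3, in neural stem cell cultures of the adult mouse. A member is an H3K4me3 region on chromosomes 1 to 19 that is 2000 to 5000 bp wide and whose nearest H3K27me3 region on the same chromosome is more than 50 kb away, measured from end to end. There were 1201 members. They made up 12.1% (95% Wilson interval 11.5 to 12.7%) of the 9938 autosomal H3K4me3 regions of that width, and 5.69% (5.39 to 6.01%) of all 21098 autosomal H3K4me3 regions. The members were chosen by their width and their distance from H3K27me3, so both are given below as a description.

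The cultures were neurospheres, floating spheres grown from cells of the subventricular zone, the stem cell niche along the lateral ventricles. The mice were male C57BL/6 of wild-type genotype, and no treatment or other genotype is named. Each mark was measured by chromatin immunoprecipitation and sequencing in 1 library, and the authors deposited a list of called regions for each, with 21998 regions for H3K4me3 and 117512 for H3K27me3. The series' design text calls the stem cells adult, but no age in weeks and no number of animals is given, and neurospheres are a mixture of stem cells and their progeny. The third sample, input DNA, was not analysed here. No mark was replicated, so no value has a replicate error, no test was made, and every interval covers counting error over regions only. Neighbouring regions are not independent, so these intervals are too narrow. Sequencing depth is not known from the lists, and a place without a called H3K27me3 region may still carry the mark below the caller's threshold.

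Trimethylation of lysine 4 on histone H3 marks the start sites of active genes, and most promoters rich in CpG dinucleotides carry it in cells that use them. Trimethylation of lysine 27 is laid down by Polycomb repressive complex 2, often in long blocks over silent regulators of development. In stem cells many promoters hold both marks, and these are called bivalent. A promoter with H3K4me3 and no H3K27me3 anywhere near it lies at the opposite end of that range. Whether each member lies at a gene start was not tested, because gene positions on mm9, the build of the lists, were not used here.

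The members were typical of promoter-width regions in width and as a rule had a score of 3100 or more. Their median width was 2931 bp (interquartile range 2468 to 3461 bp), from 2002 to 4997 bp. All 9938 promoter-width regions had a median of 2802.5 bp. On 17 of 19 autosomes the median member was wider than the median of the other promoter-width regions. Those others include regions overlapping H3K27me3, with a median of 2649 bp. The median was 2776.5 bp with H3K27me3 up to 10 kb away, 2875 bp at 10 to 25 kb and 2903 bp at 25 to 50 kb. Regions at 10 to 50 kb were thus nearly as wide as members. The deposited score, which has no stated scale, piles up at 3100, and a score of 3100 or more is called the top score here. Only 89 H3K4me3 regions of the whole list, 4 of them members, lay above 3100. Regions within the pile cannot be ranked, so the comparison is coarse. The top score was reached by 1145 members, or 95.3% (95% Wilson interval 94.0 to 96.4%), against a background of 92.9% over all promoter-width regions. The score took no part in choosing the members.

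Set out by distance, the share at the top score was lowest where H3K27me3 overlapped the region. It was 83.0% (81.5 to 84.4%) of the 2536 promoter-width regions that shared at least 1 bp with H3K27me3. With H3K27me3 up to 10 kb away it was 96.1% (95.4 to 96.8%, 2970 regions). At 10 to 25 kb it was 97.3% (96.4 to 97.9%, 1783 regions). Between 10 and 200 kb the share thus varied by less than 2 percentage points. It was 96.3% (95.2 to 97.2%) at 25 to 50 kb, 95.7% (94.1 to 96.8%) at 50 to 100 kb and 95.8% (92.9 to 97.6%) at 100 to 200 kb. Among the 37 members more than 200 kb away 31 were at the top score, or 83.8% (68.9 to 92.3%), an interval that takes in the share at overlapping regions and lies below the values at 10 to 200 kb. Members were at or above the share of overlapping regions on most chromosomes, with a higher value on 18 of 19 autosomes and a lower one on chromosome 18. Against promoter-width regions 10 to 50 kb from H3K27me3 the order was split, with members higher on 8 autosomes and lower on 11.

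Width moved with the score, so the comparison was repeated within widths. Among regions 2000 to 2500 bp wide, 283 of 325 members were at the top score (87.1%, 83.0 to 90.3%). The value was 91.5% (89.5 to 93.1%) for regions of that width 10 to 50 kb from H3K27me3 and 70.6% (67.8 to 73.3%) for those overlapping it. Between 2500 and 3000 bp the members reached 97.5% (95.1 to 98.7%), beside 98.1% at 10 to 50 kb and 85.8% with overlap. All 283 members of 3500 bp or more were at the top score, as were nearly all other regions that wide. Between 3500 and 4000 bp the share was 99.5% at 10 to 50 kb and 97.5% with overlap. Between 4000 and 5000 bp it was 100% and 98.3%. The 56 members below the top score were therefore mostly narrow, with 42 of them under 2500 bp. They had a median score of 1426, and the lowest, 319.49, belonged to a region of 2105 bp on chromosome 18 (15002524 to 15004628).

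The limits of the rule fell in a continuum. The 5 members nearest to the distance limit were 50.036 to 50.141 kb from H3K27me3, and the 5 promoter-width regions just outside it were 49.964 to 49.985 kb away. All 10 were at the top score. At the lower width limit the 5 narrowest members measured 2002 to 2009 bp and the 5 regions just below it 1983 to 1999 bp, of which 4 were at the top score. At the upper limit the 5 widest members measured 4918 to 4997 bp, and the next wider regions 5007 to 5060 bp. Of all 2454 autosomal H3K4me3 regions more than 50 kb from H3K27me3, 48.9% were members, 47.4% were narrower and 3.63% (89 regions) were wider. Seen by width, 11.01% (10.4 to 11.6%) of the narrower regions lay beyond 50 kb, 12.1% of the promoter-width ones and 15.1% (12.4 to 18.2%) of the wider ones.

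The nearest H3K27me3 region was a median of 76.0 kb from a member (interquartile range 60.2 to 103 kb, highest 461 kb). On the other side the next H3K27me3 region was a median of 143 kb away. The rule keeps members more than 50 kb from H3K27me3 on either side, which limits how unequal both distances can be. The farther side was a median of 1.64 times as far as the nearer one, and the highest ratio was 14.3. For 2 members, on chromosome 10 (129978466 to 129980535) and chromosome 18 (90748354 to 90750372), no H3K27me3 region lay between the member and the end of the chromosome, and they are left out of the lengths that follow.

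The other 1199 members lay in 843 H3K27me3-free stretches, a stretch being the bases between 2 successive H3K27me3 regions. Their median length was 214 kb (interquartile range 164 to 297 kb), and the middle 80% ran from the tenth percentile of 136 kb to the ninetieth of 393 kb. The rule sets a floor of 102 kb, so only the upper end of these lengths carries information. The shortest was 104 kb and the longest 962 kb. For scale, the median gap between successive H3K27me3 regions on the autosomes was 2.29 kb. The 843 stretches added up to 211 Mb, which is 8.75% of the 2414 Mb that the lists span on the autosomes.

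Most long H3K27me3-free stretches held no member. The autosomes had 5827 stretches over 102 kb, and these covered 1197 Mb. A member was found in 843 of them (14.5%). Another 1783 held H3K4me3 but no member, and in 990 of these a promoter-width region was present but lay within 50 kb of an end. The remaining 3201 had no H3K4me3 region at all, and they covered 637 Mb, with a median length of 161 kb. Stretches without H3K4me3 also supplied the longest one, of 7163 kb, and 7 of the 12 that reached 1 Mb. No stretch of 1 Mb or more held a member. The sequence of these stretches was not analysed here.

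**Figure D1:**
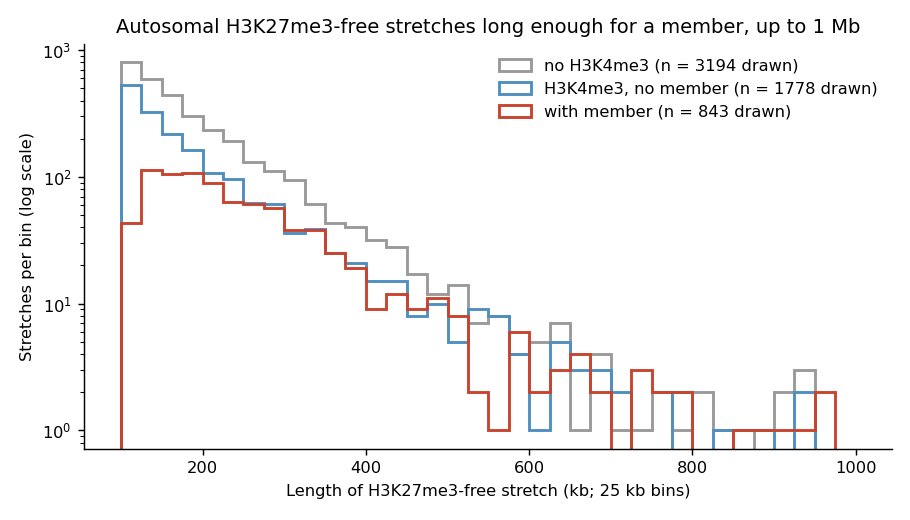
Number of autosomal H3K27me3-free stretches (vertical axis, log scale) by length in bins of 25 kb (horizontal axis, 102 kb to 1 Mb), for stretches without H3K4me3, with H3K4me3 but no member, and with at least 1 member. The line for stretches with members is low in the first bin, where the rule leaves little room, and from about 250 kb it runs close to that of stretches with H3K4me3 but no member.

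The share of stretches that held a member was higher in longer stretches up to about 400 kb and level beyond. A member was present in 6.5% (95% Wilson interval 5.58 to 7.56%) of stretches from 102 to 150 kb, in 16.0% (14.1 to 18.0%) from 150 to 200 kb and in 21.4% (19.2 to 23.7%) from 200 to 300 kb. From 300 to 400 kb the share was 25.1% (21.4 to 29.1%), from 400 to 500 kb 23.0% (17.5 to 29.7%) and above 500 kb 25% (19 to 32.1%). A longer stretch has more room for a member, and per length the order was the reverse. Counted over the part of each stretch that lies more than 50 kb from both ends, members had a density of 3.15 per Mb in stretches of 102 to 150 kb. That density was 2.26 per Mb at 200 to 300 kb, 1.68 at 300 to 400 kb and 0.701 above 500 kb. Over whole stretches, promoter-width H3K4me3 went from 4.15 regions per Mb in the shortest of these classes to 0.706 in the longest, and H3K4me3 of all widths together from 6.89 to 2.31.

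Inside the stretches, promoter-width H3K4me3 was spread at a near constant density from the ends inward. In the 2088 stretches of 200 kb or more, promoter-width regions numbered 2.16 per Mb within 10 kb of an end, 2.20 at 10 to 25 kb and 2.16 at 25 to 50 kb. Past the 50 kb limit the density was 2.01 per Mb at 50 to 75 kb and 2.02 at 75 to 100 kb. Only beyond 100 kb was it lower, at 1.34 per Mb, and there the longer and sparser stretches weigh more. H3K4me3 of all widths was densest next to the ends, at 5.29 regions per Mb within 10 kb. Promoter-width regions thus continued past the members to the edges of the stretches. The stretches with members held 652 further promoter-width regions within 50 kb of an end, 97.9% of them at the top score.

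**Figure D2:**
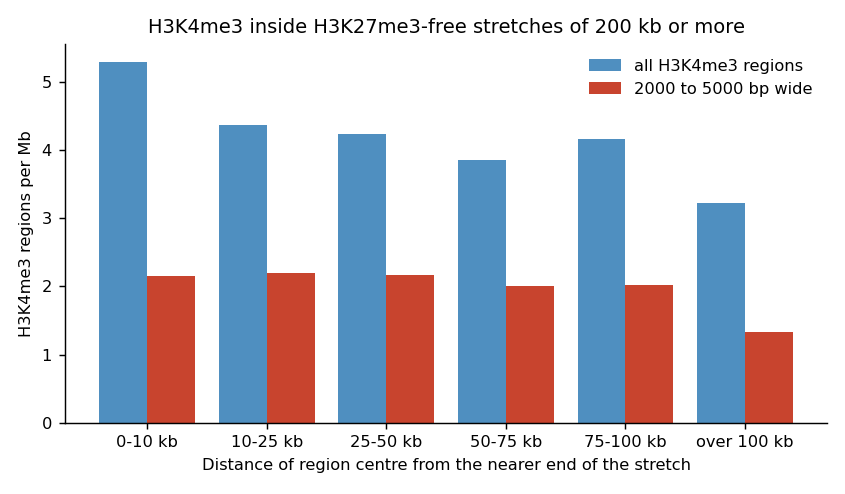
H3K4me3 regions per Mb (vertical axis) by the distance of the region's centre from the nearer end of the H3K27me3-free stretch (horizontal axis), in the 2088 autosomal stretches of 200 kb or more, for all H3K4me3 regions and for those 2000 to 5000 bp wide. The bars for promoter-width regions stay between 2.01 and 2.20 per Mb up to 100 kb and are at 1.34 beyond.

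The stretches that held members contained 2807 H3K4me3 regions, or 13.3 per Mb. The rest of the autosomal span had 8.30 per Mb. A stretch enters this set only if it holds a member. With the members left out, the other 1608 regions came to 7.61 per Mb. The rest of the span keeps all its promoter-width regions, which numbered 3.67 per Mb. The value of 7.61 is thus not like for like with 8.30, and no order is read from them. All stretches over 102 kb together had 5.01 per Mb, beside 12.4 per Mb outside them. Long H3K27me3-free stretches were thus poorer in H3K4me3 as a class. Besides the members, the stretches that held members had 892 narrower regions and 64 wider ones. The narrower ones had a median width of 1136 bp, and 17.8% reached the top score, against 12.8% of all narrower autosomal regions. In 157 stretches (18.6%) the member was the only H3K4me3 region.

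The 10 longest stretches with members ran from 753 to 962 kb. The longest and the third longest adjoined on chromosome 2. One spanned 175804923 to 176767287 (962 kb) and the other 174869356 to 175804101 (935 kb), and an H3K27me3 region of 821 bp with a score of 108.45 was all that parted them, so that 1898 kb held 1 called H3K27me3 region. Together they held 31 H3K4me3 regions, of which 26 were narrower than 2000 bp and only 2 were at the top score. The sequence of both stretches was not analysed, and whether reads could be placed there as well as elsewhere is not known. The 4 members of the longest stretch were all narrow, from 2024 to 2064 bp, with scores of 3100, 1624.94, 3010.36 and 639.84. Of these, the regions at 176266196 to 176268253 and 176328373 to 176330436 were the members farthest from H3K27me3 in the whole list, at 461 and 437 kb. The 1 member of the other stretch measured 2203 bp and lay at 174965871 to 174968073, at the top score. Of the 10 members farthest from H3K27me3, the other 8 were at the top score.

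The rest of the 10 were mostly thinly populated. On chromosome 3 a stretch of 950 kb (118736183 to 119686381) held a member of 3540 bp at 119483812 to 119487351 and 4 narrower regions. A second one there, of 925 kb (136180051 to 137104851), held a member of 4642 bp at 136331615 to 136336256 and 2 narrower regions. The stretch of 887 kb on chromosome 17 (90993581 to 91880953) had its member, 3534 bp wide, near the middle at 91489588 to 91493121, 388 kb from the nearest H3K27me3. These members were at the top score, while the narrower regions around them were below it. A stretch of 857 kb on chromosome 2 (113919785 to 114777169) held a member of 2682 bp at 114024973 to 114027654. On chromosome 12 a stretch of 797 kb (18352668 to 19149612) had a member of 2431 bp (18616062 to 18618492) with a score of only 967.11, and none of its 5 H3K4me3 regions reached the top score.

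The eighth stretch was the crowded one. It measured 793 kb on chromosome 4 (97087527 to 97880247) and held 18 H3K4me3 regions, 14 of them narrow and 1 wider than 5000 bp. Its 3 members were at the top score: one of 4915 bp at 97247630 to 97252544, and a pair of 2667 and 2696 bp at 97417415 to 97420081 and 97423545 to 97426240, which lay 3.463 kb apart and about 330 kb from the nearest H3K27me3. The ninth stretch was the opposite case. It covered 770 kb of chromosome 16 (39895945 to 40666014) with a single H3K4me3 region, the member of 3562 bp at 39983863 to 39987424. The tenth, of 753 kb on chromosome 10 (52423558 to 53176588), held a member of 2259 bp at 53098111 to 53100369 and 3 narrower regions.

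**Figure D3:**
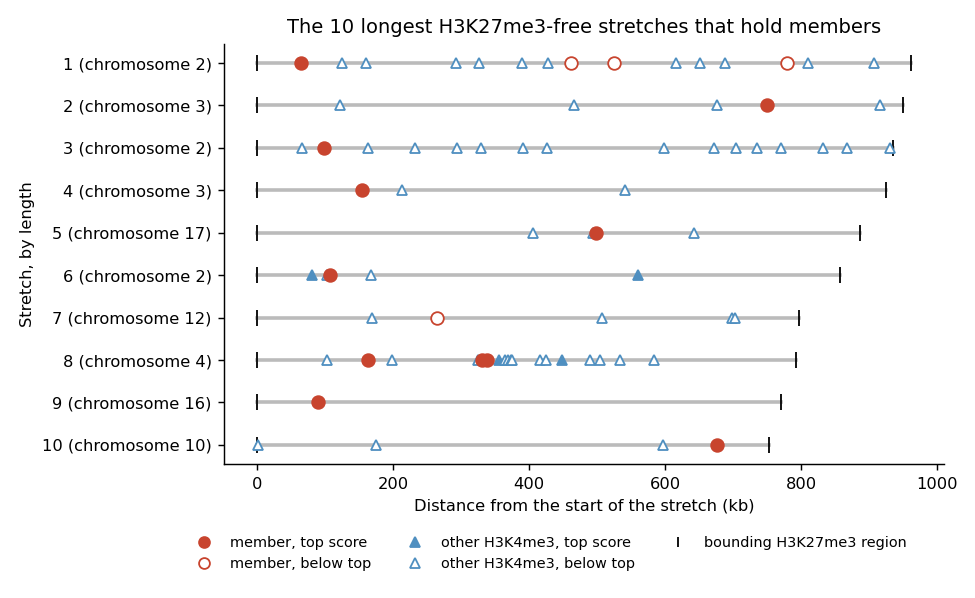
The 10 longest H3K27me3-free stretches with members, each drawn as a line from its first base (horizontal axis, kb from the start of the stretch), with members as circles, other H3K4me3 regions as triangles, filled where at the top score, and the bounding H3K27me3 regions as bars. The stretches ranked 1 and 3, both on chromosome 2, hold mostly open symbols, and the stretch ranked 9 holds a single member.

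The 10 members farthest from H3K27me3 differed in how near other H3K4me3 lay, from 1.815 kb on chromosome 17 to 881 kb on chromosome 5. The member on chromosome 5 at 63153902 to 63158434 was 4533 bp wide, 320 kb from H3K27me3 and 881 kb from the next H3K4me3 region. On chromosome 2 the member at 42506376 to 42509388 was 302 kb from H3K27me3 and 542 kb from other H3K4me3. The member on chromosome 4 at 6117715 to 6119782 was 172 kb from other H3K4me3. The remaining 7 had another H3K4me3 region within 60.1 kb, such as the member on chromosome 1 at 171459776 to 171462387, 354 kb from H3K27me3, with the next H3K4me3 43.7 kb away.

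The H3K27me3 regions that closed the stretches were narrower and lower in score than their list as a whole, and close to isolated regions in general. There were 1660 of them, and their median score was 83.9, against 112 for all 115609 autosomal H3K27me3 regions. Their median width was 764 bp, against 879 bp. Of the bounding regions 62.2% had a score under 100, beside 44.5% of the whole list, and 0.964% were at the top score, beside 2.57%. Isolated regions, with no other H3K27me3 region within 3 kb, made up 79.0% of those at the ends and 30.1% of all. A region at the end of a stretch has no neighbour on that side by definition, which raises the first of these shares. Isolated autosomal H3K27me3 regions as a class had a median score of 81.3, a median width of 749 bp and 64.5% with a score under 100. All 20 ends of the 10 longest stretches were at isolated H3K27me3 regions, 12 of them with a score under 100.

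Beyond their ends, the stretches with members met H3K27me3 more often in numbers than other long stretches did. Over the 1686 ends, the first 50 kb beyond the stretch, the bounding region included, held a mean of 3.64 and a median of 2 H3K27me3 regions. The mean was 2.42 at the 9968 ends of stretches over 102 kb without a member. At 564 ends (33.5%) the bounding region was the only one in that 50 kb, against 48.8% of the ends without a member. At 143 ends (8.48%) there were 10 or more, against 3.44%. Of the 9968 ends, however, 6402 belonged to stretches without any H3K4me3. There the mean was 1.89, and 0.968% of ends had 10 or more. Stretches with H3K4me3 but no member, the closest match, were not counted apart. Since the ends without any H3K4me3 were lower, the ends of this closest match must lie above the mean of 2.42. Their share with 10 or more must likewise lie above 3.44%. How near they come to the stretches with members is not given. The difference is therefore not shown to be particular to stretches with members. In 26 cases 1 H3K27me3 region had a stretch with members on either side. These regions are isolated by construction. Their median width was 733.5 bp and their median score 93.3. After the pair on chromosome 2, the longest of these joint spans was 947 kb on chromosome 1 (171105533 to 172052320), parted by an H3K27me3 region of 468 bp with a score of 51.99. Whether such a span counts as 1 stretch or 2 rests on that 1 call.

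Members lay unevenly along the chromosomes. From one member to the next on the same chromosome the median gap was 852 kb, with an interquartile range of 80.7 to 2866 kb. Of the 1182 gaps, 78 (6.60%) were up to 10 kb, 156 (13.2%) were 10 to 50 kb and 79 (6.68%) were 50 to 100 kb. At the other end 415 gaps (35.1%) were 1 to 5 Mb and 145 (12.3%) were longer than 5 Mb. Over all promoter-width regions, which are more numerous, 9.12% of the gaps to the next were up to 10 kb and 5.03% were 1 to 5 Mb. When the autosomes were divided into windows of 5 Mb, 90 of 505 windows held no member, the median window held 2, and 50% of all members lay in 104 windows (20.6%). Promoter-width regions as a whole were uneven too. The window on chromosome 19 from 5000001 held 87 of them, and that on chromosome 1 from 100000001 held 0. Their matching concentration was not worked out, so members are not shown to be more concentrated than they are.

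The H3K4me3 surroundings of the members were sparser than those of promoter-width regions up to 50 kb from H3K27me3 but not overlapping it, and close to those of overlapping regions. Another H3K4me3 region lay within 10 kb of 321 members (26.7%, 95% Wilson interval 24.3 to 29.3%), against a background of 31.7% of all promoter-width regions. The share was 36.3% (34.6 to 38.1%) where H3K27me3 was up to 10 kb away, 31.0% (29.4 to 32.6%) where it was 10 to 50 kb away and 29.6% (27.8 to 31.4%) where it overlapped. Within 50 kb the share was 66.1% for members and 66.5% for overlapping regions, beside 84.2% with H3K27me3 up to 10 kb away. Within 100 kb it was 85.2% for members and 84.4% for overlapping regions. Within 500 kb to either side the median member had 11 other H3K4me3 regions. The corresponding median was 18 with H3K27me3 up to 10 kb away, 15 at 10 to 25 kb, and 13 at 25 to 50 kb and where the marks overlapped. A member had a median of 28 H3K27me3 regions within 500 kb, beside 70 for all promoter-width regions, a difference that the rule itself helps to set.

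Counted between promoter-width regions alone, members and regions overlapping H3K27me3 were spaced alike in the middle of their ranges. The nearest other promoter-width region was a median of 55.6 kb from a member and 61.7 kb from a region that overlapped H3K27me3. Where H3K27me3 was up to 10 kb away the median was 31.4 kb, and at 10 to 50 kb it was 40.8 kb. Promoter-width H3K4me3 was thus closest together in the vicinity of H3K27me3 and wider apart both under it and far from it. These medians describe 1 pair of lists, and their difference was not tested.

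**Figure D4:**
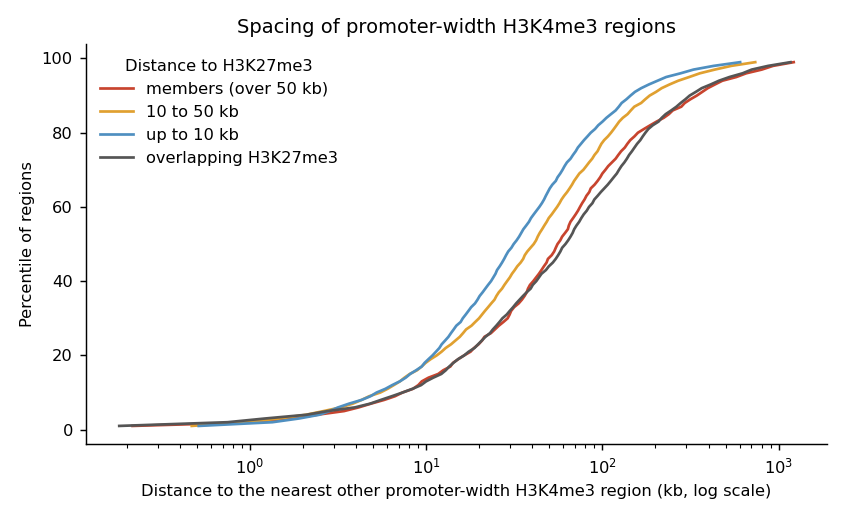
Percentile of promoter-width H3K4me3 regions (vertical axis) by distance to the nearest other promoter-width region (horizontal axis, kb, log scale), in 4 classes of distance to H3K27me3. The curves of members and of regions overlapping H3K27me3 lie together on the right, with medians of 55.6 and 61.7 kb, and those of regions up to 10 kb and 10 to 50 kb from H3K27me3 lie to their left.

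Chained over gaps of up to 100 kb, 519 members (43.2%, 40.4 to 46.0%) fell into 206 groups of at least 2, and 682 stood alone. The background is larger by construction: 74.7% of all promoter-width regions were in such groups when every promoter-width region could be chained, and by that measure 69.0% of members had a partner, a member or not. Each group lay within 1 stretch, as the rule requires, since members on either side of an H3K27me3 region are more than 100 kb apart. There were 140 groups of 2, 43 of 3 and 23 of 4 or more. The median span of a group was 45.0 kb. In 191 groups every member was at the top score. Members in groups had a median width of 2842 bp and were 82.0 kb from H3K27me3, and members alone had a median width of 3017 bp and were 71.1 kb from it. The share at the top score was 95.8% in groups and 95.01% alone.

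The largest group was a row of 9 members on chromosome 4 from 116134831 to 116394783, a span of 260 kb inside a stretch of 637 kb. No other H3K4me3 region lay between them. Gaps ran from 10.3 to 46.0 kb, widths from 2211 to 4323 bp, and all 9 were at the top score. Their nearest H3K27me3 was 97.7 kb from the last of them and 311 kb from the second. The group was a chain of top-scoring regions, all of promoter width.

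The next groups differed in span and spacing, without a clear break between long chains and tight clusters. On chromosome 3 a chain of 7 members spanned 236 kb (88520358 to 88756192), all at the top score, with gaps of 1.285 to 75.7 kb. On chromosome 14 a chain of 6 spanned 122 kb (52815339 to 52936954), also all at the top score, with no other H3K4me3 between. A tight cluster of 6 on chromosome 13 took only 45.4 kb (23633932 to 23679307). Its median gap was 4.09 kb, its widths ran from 2260 to 4196 bp, 3 further H3K4me3 regions lay among the members, and every member was at the top score.

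The group of 7 on chromosome 18 (69659496 to 69760314, 101 kb) differed from the other large groups in score. Only 3 of its 7 members were at the top score, and the others had scores of 1044.33, 517.54, 1407.56 and 1177.68. The 3 at the top score were 3966, 4049 and 2515 bp wide, and a pair of them was only 41 bp apart. These 4 low-scoring members are part of the 7 below the top score on chromosome 18, where the share at the top score was 85.1%, the lowest of the 19 autosomes.

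Some members lay almost end to end. Of the 78 neighbouring pairs within 10 kb, 23 were within 2 kb. The closest pair was 12 bp apart on chromosome 2 (116944953 to 116947013 and 116947026 to 116950291), with widths of 2061 and 3266 bp. Joined, those bases would exceed the upper width limit of the rule. Other pairs were 29 bp apart on chromosome 3 (137526136 to 137529581 and 137529611 to 137531806) and 59 bp apart on chromosome 16 (43502664 to 43505410 and 43505470 to 43509344). The regions within 10 kb of members that were not members themselves numbered 227, of which 186 (81.9%) were narrower than 2000 bp and 68 (29.96%) were at the top score. Around promoter-width regions 10 to 50 kb from H3K27me3, neighbours outside that class numbered 737, with shares of 70.8% and 40.7%. Neighbours of the same class are left out of both counts. Promoter-width regions therefore made up 20 of the 227 around members and 177 of the 737. The 2 sets of shares are thus not like for like, and no difference is read from them.

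The 5 windows with most members held 46 to 115 H3K4me3 regions, against a median of 35 over all windows, and H3K27me3 was not scarce in them. The window of 5 Mb with most members, 13, was on chromosome 4 from 115000001 to 120000000. It held 55 promoter-width regions and 493 H3K27me3 regions, while the median window had 147. Next came chromosome 9 from 105000001 to 110000000 with 12 members of 67, and then, with 11 members each, chromosome 11 from 20000001 to 25000000 (of 25) and chromosome 3 from 85000001 to 90000000 (of 64). Chromosome 11 from 85000001 to 90000000 (10 of 34) and chromosome 5 from 30000001 to 35000000 (10 of 54) tied for the fifth place. A window could also be dense in members with little H3K4me3: on chromosome 3 from 135000001 to 140000000, 9 of only 14 promoter-width regions were members (64.3%), among 31 H3K4me3 and 52 H3K27me3 regions. Among the 196 windows with at least 20 promoter-width regions the highest share of members was 44.0%, on chromosome 11 from 20000001. In that set the median share was 6.71%, and 32 windows had no member.

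Windows without members could be full of H3K4me3. The window on chromosome 2 from 25000001 to 30000000 held 73 promoter-width regions and no member, and it had 977 H3K27me3 regions. On chromosome 10 from 75000001 to 80000000 there were 72 promoter-width regions, no member and 635 H3K27me3 regions. The longest run between successive members, 19.5 Mb on chromosome 14 (79989303 to 99442777), was of the other kind. It held only 5 promoter-width regions and 134 H3K27me3 regions. The next, 15.7 Mb on chromosome 7 (13467813 to 29155151), held 121 promoter-width regions and 759 H3K27me3 regions. A lack of members thus occurred both where H3K4me3 was rare and where it was plentiful among dense H3K27me3.

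Over the 19 autosomes the members' share of promoter-width regions was 12.5 ± 3.46% (SD over autosomes), and their density was 0.497 ± 0.0884 per Mb. The share was highest on chromosome 3, with 89 of 494 (18.0%, 95% Wilson interval 14.9 to 21.6%), and on chromosome 1, with 101 of 566 (17.8%, 14.9 to 21.2%). It was lowest on chromosome 7, with 41 of 730 (5.62%, 4.17 to 7.53%), and chromosome 17, with 37 of 491 (7.54%, 5.52 to 10.2%). The intervals of chromosomes 3 and 1 overlapped almost wholly, as did those of most neighbours in this order, while the interval of chromosome 7 overlapped only those of chromosomes 11, 15, 17 and 19. By density the order was another one: chromosome 9 had most members per Mb (0.678) and chromosome 7 fewest (0.275).

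The share and the density of H3K27me3 are tied by the rule, since fewer H3K27me3 regions leave more room beyond 50 kb. Chromosome 3, with the highest share, had the fewest H3K27me3 regions per Mb (27.4). Chromosome 11, with the most (79.9), had a share of 8.61%. At similar densities shares could differ: chromosome 9 had 61.7 H3K27me3 regions per Mb and a share of 14.2%, and chromosome 7 had 57.6 per Mb and a share of 5.62%. Median stretch length differed little among autosomes, from 175 kb on chromosome 7 to 249 kb on chromosome 1, and the stretches covered from 4.50% of chromosome 7 to 11.2% of chromosome 2.

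**Figure D5:**
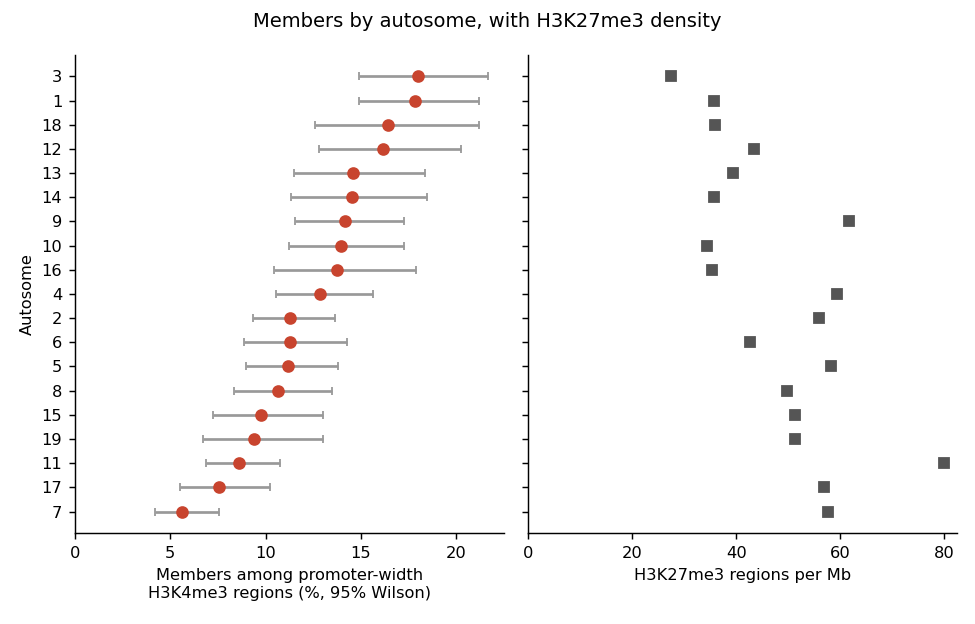
Left, the members' share of promoter-width H3K4me3 regions on each autosome (horizontal axis, percent, points with 95% Wilson intervals), ordered by the share. Right, H3K27me3 regions per Mb on the same autosomes. Chromosome 3 is at the top with 18.0% and chromosome 7 at the bottom with 5.62%, and chromosome 9 combines a share of 14.2% with 61.7 H3K27me3 regions per Mb.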

How the data were processed

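H3K4me3 and H3K27me3 were measured in 1 library each, grouped by the antibody in the labels. The authors deposited called regions with a score of no stated scale. The submitters' processing notes name Bowtie 1.1.2 and mm9, and per the file contents each region has a MACS name. The caller's version, threshold and control were not given in the sources used here. Weak regions and long free stretches depend on that threshold and on depth. Positions are on mm9, counted from 1. Distances are the bases between region ends. Stretches, groups and windows were computed with Python 3.11.15, NumPy 2.4.6, pandas 2.3.3 and SciPy 1.17.1, and figures with matplotlib 3.10.9. Members were checked against bedtools 2.31.1 (0 differed), and distances were tested on simulated data. The spans of chromosomes run from the first to the last region in either list. Members and lists were chosen with earlier results of these data known. The regions named are the 10 longest stretches, the members farthest from H3K27me3, the largest groups, the densest windows and those at the limits of the rule. The closest pairs, stretches joined across 1 H3K27me3 region, members below the top score, windows without members and runs between members were named after their values were seen. The alternatives were other distances, widths, chaining gaps and subsets by score or isolation. The gene table at hand is on GRCm38.p6, so no gene or sequence is given.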

Additional observations from a re-analysis of the deposited data

How the results depend on the processing

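Counts of members follow the distance limit and the weak H3K27me3 calls. The 1201 members became 2649 with a limit of 25 kb and 326 with 100 kb. They became 2873 when the upper 50% of H3K27me3 regions by score was used, 2616 with H3K27me3 scores of 100 or more, and 3895 without isolated H3K27me3 regions. Widths of 1500 to 6000 bp gave 1520, and top-scoring H3K4me3 regions alone 1145. The median stretch of 214 kb was 286 kb, 274 kb and 370.0 kb under the same 3 reductions of the H3K27me3 list, which remove bounding regions by construction, and 216 kb for members at the top score. The share at the top score, 95.3%, ran from 94.5% to 95.9% under the other distances and H3K27me3 subsets tried, and was 86.1% with widths of 1500 to 6000 bp, which let in narrower regions. The share of members in groups, 43.2%, was 47.3% with a limit of 25 kb, 38.0% with 100 kb, 33.2% with a chaining gap of 50 kb, 53.6% with 250 kb and 42.6% for members at the top score. No paired analysis was possible because there was only 1 library for each mark. Depth, which limits how weak a region can be called, is not known here.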

Other observations

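The X chromosome was not part of the rule. There, 193 of 324 promoter-width H3K4me3 regions (59.6%, 95% Wilson interval 54.1 to 64.8%) lay more than 50 kb from H3K27me3, above the highest autosomal share of 18.0% on chromosome 3. The share is tied by the rule to the density of H3K27me3 calls, and 115609 of the 117512 H3K27me3 regions were autosomal. The mice were male, with a single X, and whether copy number lowered the calls there was not tested. The share is therefore not read as a trait of X chromatin.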
